A study of Homo sapiens with 4 samples.

Results

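The genes described here are 44 genes of DNA replication and deoxynucleotide synthesis. Their members are all probe sets whose only gene symbol in the platform annotation is one of these 44 symbols, which gave 85 of 54613 probe sets and all 44 genes, of 19775 genes represented on the arrays. Expression was measured on 4 Affymetrix 3' arrays. The cells were of the human line LN-229, which was established from a glioblastoma. The 2 control arrays came from cells without treatment. The 2 induced arrays came from cells given doxycycline (spelled Doxocyclin in the labels) for 48 h to induce WIF1. The WIF1 protein is secreted and captures WNT ligands, and a rise of its transcript was not seen on its probe set. The labels call the replicates biological and do not say whether the inducible cells are 1 clone. No array had doxycycline without WIF1, so effects of the drug and of WIF1 cannot be told apart.

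As background, a human origin of replication is licensed in G1, when the origin recognition complex, CDC6 and CDT1 load the ring-shaped MCM2 to MCM7 helicase onto DNA. At the start of S phase CDC45 and the GINS complex join and activate that helicase, and polymerase alpha with primase lays down primers that polymerases delta and epsilon extend on the sliding clamp PCNA. Ribonucleotide reductase, thymidylate synthase and thymidine kinase supply the deoxynucleotides. Transcription of most of these genes is driven by E2F factors, which the retinoblastoma protein holds inactive until cells commit to S phase.

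The replication genes differed little between induced and control cells. Their differences (induced minus control, brightest probe set of each gene) lay between -0.24 and 0.18 log2 units with a median of -0.04, beside a median of -0.00 over all 19775 genes. By sign, 29 of the 44 were lower in the induced arrays (51.2% of all genes were) and 15 higher. The polymerase subunit POLA2 had the most negative difference and UHRF1, which guides maintenance DNA methylation, the most positive. The clamp PCNA had the smallest p. With limma over all probe sets (adjusted p under 0.05), 0 of the 44 genes were called, and 0% of all genes were. The count for the 44 was also 0 under each of the 11 alternatives fitted. At an unadjusted p under 0.05 stood 4 members higher (9.09%, against 6.48% of all genes) and 7 lower (15.9%, against 4.73%). Centring each array on its own median turned that split to 4 higher (9.09%, against 8.42% of all genes) and 2 lower (4.55%, against 2.79%). Without the intensity trend in limma it was 0 higher (against 4.37% of all genes) and 1 lower (2.27%, against 3.38%). After cyclic loess it was 4 higher (9.09%, against 7.06% of all genes) and 8 lower (18.2%, against 4.75%). With probe sets averaged per gene it was 4 higher (9.09%, against 5.1%) and 7 lower (15.9%, against 5.25%). Leaving out each array in turn, the median of the 44 ran from -0.05 to -0.02.

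The precision of these small differences can be read from the intervals. For 43 of the 44 genes the 95% interval of the difference lay within 0.5 log2 units of 0 on both sides, and for 35 it lay within 0.25. The exception to the first count was the GINS subunit GINS4, from -0.53 to 0.33. Of the 12722 genes whose mean reached the median over probe sets, 12358 had intervals within 0.5 and 7448 within 0.25. These intervals come from the model and rest on 2 arrays per group. In bulk RNA, a smaller share of cells in S phase and less RNA per cell cannot be told apart. The mean of each of the 44 genes reached 6.16, the median over probe sets.

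**Figure D1:**
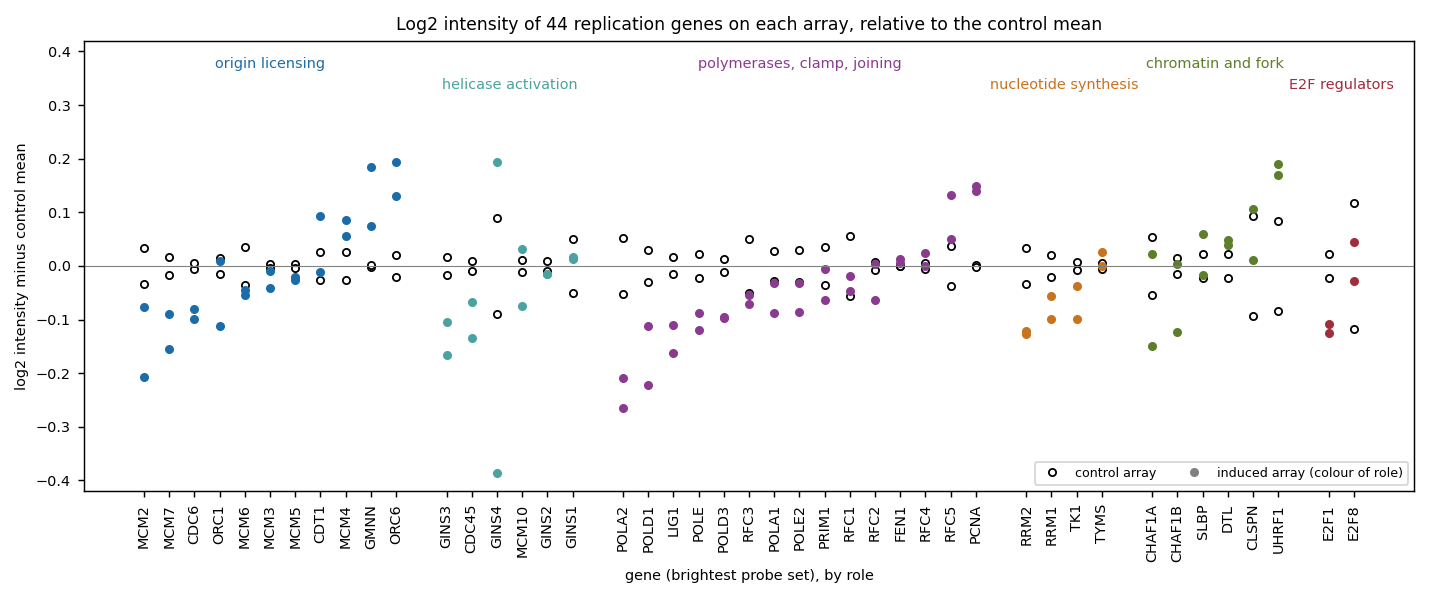
Log2 intensity of each gene's brightest probe set on each array (y axis, log2 units, minus the mean of the control arrays) for the 44 genes grouped by role (x axis). Open points are the 2 control arrays and filled points the 2 induced arrays; both induced points of PCNA, ORC6 and GMNN lie above both controls, and those of POLA2, RRM2 and MCM7 below.

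Array-wide measures were close. The array medians were 6.16 and 6.19 on control arrays and 6.15 and 6.15 on induced arrays. The probe set of WIF1 gave 2.98 and 2.90 on control arrays and 2.93 and 3.03 on induced arrays, near the floor of the array in both groups. The difference was 0.04 (SE 0.10), so no rise of WIF1 was seen and the induction is not shown by these arrays. Whether this probe set can read the introduced WIF1 transcript was not tested. Of 10 glial and glioma line markers 8 reached that median, among them VIM, CD44 and NES, while GFAP, the classical astrocyte marker, and SOX9 were below it. The leukocyte marker PTPRC, the endothelial markers KDR and CDH5 and the epithelial markers EPCAM and CDH1 were below it as well. In all, 1 of 4 leukocyte, 3 of 5 endothelial, 3 of 5 epithelial and 4 of 5 neuronal markers reached it. The summed level of 4 measured leukocyte markers ranged from 21.5 to 21.7 in the controls and from 21.2 to 21.6 in the induced arrays. That of 5 endothelial markers ranged from 27.6 to 28.3 and from 27.7 to 27.8, that of 5 epithelial markers from 26.7 to 27.1 and from 26.5 to 26.6, and that of 5 neuronal markers from 36.2 to 36.3 and from 36.4 to 36.7. The summed level of the 10 glial and glioma line markers ranged from 103.6 to 103.7 in the controls and from 103.2 to 103.4 in the induced arrays. The glial and epithelial sums were thus lower on both induced arrays than on either control, and the neuronal sum was higher on both. Among single markers, the synaptic gene SYT1 differed by 0.35 (SE 0.065, limma adjusted p = 0.452), FABP7 by -0.19 (SE 0.034, limma adjusted p = 0.437), SOX2 by -0.15 and S100B by -0.12, and their part in the results was not tested. The 3' minus 5' difference of ACTB, a sign of RNA quality, was -0.036 and 0.021 on control arrays and 0.033 and 0.11 on induced arrays, and that of GAPDH was -0.067 and -0.069 against -0.043 and -0.047. The part of RNA quality in the differences below was not tested.

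Promoters were examined because E2F sites are the feature that these genes are known to share, and the rule for members did not use sequence. RefSeq promoters (GRCh38.p14) were found for 39 of the 44 genes, all but MCM4, MCM5, GINS4, POLD3 and E2F8. In the 250 bases before the start, on both strands and with overlaps allowed, the E2F words TTTCCCGC, TTTGGCGC, TTTCGCGC and TTTGCCGC were sought. At least 1 of them was present in 15 of the 39 promoters (38.5%), against 3.64% of the 15384 promoters of genes measured on the arrays. The cell cycle homology region TTTGAA, an element of mitotic gene promoters, was present in 1 of the 39 (2.56%), that of RRM1, against 10.6%. Among 19 promoters of a list of mitosis genes the order was the other way round, with E2F words in 2 (10.5%) and TTTGAA in 11 (57.9%). The NF-Y box CCAAT was found in 23 of the 39 (59%), in 17 of the 19 (89.5%) and in 34.1% of measured genes.

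**Figure D2:**
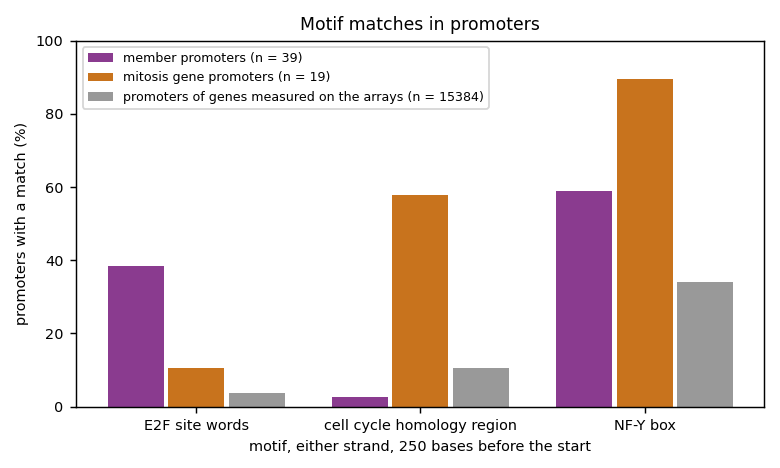
Share of promoters (y axis, percent) with at least 1 match in the 250 bases before the start for 3 motifs (x axis), in 39 replication gene promoters, 19 mitosis gene promoters and 15384 promoters of measured genes. E2F words are found in 38.5% of the replication genes and 10.5% of the mitosis genes, and the cell cycle homology region in 2.56% and 57.9%.

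The 4 promoters below are shown because each holds an E2F word while their genes differed in opposite directions between induced and control cells. Each is the 250 bases before the start in GRCh38.p14, 5′ to 3′ on the gene's strand, with matches to an E2F word on either strand in capitals. PCNA lies on the minus strand at chr20:5126623-5126872, UHRF1 on the plus strand at chr19:4909251-4909500, POLA2 on the plus strand at chr11:65261712-65261961 and MCM7 on the minus strand at chr7:100101398-100101647.
PCNA: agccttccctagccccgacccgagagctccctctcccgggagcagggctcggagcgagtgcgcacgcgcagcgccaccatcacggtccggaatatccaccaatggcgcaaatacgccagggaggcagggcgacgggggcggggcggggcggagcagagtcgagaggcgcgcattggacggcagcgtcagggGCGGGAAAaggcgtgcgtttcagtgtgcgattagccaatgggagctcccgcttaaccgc
UHRF1: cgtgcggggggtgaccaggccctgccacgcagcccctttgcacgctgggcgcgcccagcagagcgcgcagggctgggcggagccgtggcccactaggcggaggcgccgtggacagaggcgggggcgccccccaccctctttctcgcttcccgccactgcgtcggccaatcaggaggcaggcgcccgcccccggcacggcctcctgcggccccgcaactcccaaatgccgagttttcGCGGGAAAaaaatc
POLA2: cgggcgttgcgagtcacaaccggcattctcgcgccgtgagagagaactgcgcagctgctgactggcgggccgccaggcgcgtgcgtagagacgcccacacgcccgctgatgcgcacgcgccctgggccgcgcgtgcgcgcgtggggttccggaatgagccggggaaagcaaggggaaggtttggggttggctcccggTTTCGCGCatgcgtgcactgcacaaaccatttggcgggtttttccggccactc
MCM7: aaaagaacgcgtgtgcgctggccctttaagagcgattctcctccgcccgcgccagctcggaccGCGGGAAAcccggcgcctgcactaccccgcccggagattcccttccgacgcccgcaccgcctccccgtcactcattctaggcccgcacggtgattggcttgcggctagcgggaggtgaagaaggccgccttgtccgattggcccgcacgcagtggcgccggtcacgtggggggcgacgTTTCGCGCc
The match began 59 bases before the start in PCNA, 14 in UHRF1 and 53 in POLA2, and the MCM7 promoter held 2, beginning 187 and 9 bases before it. A match describes the letters only. PCNA and UHRF1 were higher in the induced arrays by 0.14 and 0.18, and POLA2 and MCM7 had differences of -0.24 and -0.12. Among the 15 genes with an E2F word 10 were lower and 5 higher by sign, with a median of -0.05. Among the 24 without one 16 were lower and 8 higher, with a median of -0.04. The share of lower genes was alike with and without the words in this window.

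Origin recognition and licensing genes had differences of both signs. Of the 11 genes 7 were lower and 4 higher by sign, with a median of -0.03. An unadjusted p under 0.05 was reached by 2 higher (18.2%, against 6.48% of all genes) and 2 lower genes (18.2%, against 4.73%). ORC6, the smallest subunit of the origin recognition complex, read 10.45 and 10.49 on control arrays and 10.60 and 10.66 on induced arrays. Both induced arrays were above both controls, with a difference of 0.16 (SE 0.042, limma adjusted p = 0.472). Its probe set is of the platform's x type, whose probes can also match other transcripts. GMNN (geminin, which binds CDT1 and keeps origins from being licensed again) read 10.92 on both control arrays and 10.995 and 11.11 on induced arrays. Its groups did not overlap, and the difference was 0.13 (SE 0.046, limma adjusted p = 0.477), with 0.07 without the second induced array and 0.18 without the first. ORC1, an ATP-binding subunit of the same complex as ORC6, differed by -0.05 with overlapping arrays.

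The loading factors differed less. CDC6 read 9.62 and 9.63 on control arrays and 9.54 and 9.52 on induced arrays, differing by -0.09 (SE 0.043, limma adjusted p = 0.532). Its second probe set gave 0.08, so the direction for CDC6 depends on the probe set. CDT1 read 8.92 and 8.87 on control arrays and 8.99 and 8.88 on induced arrays, differing by 0.04, and its second probe set gave -0.07. For CDT1 the groups overlapped, and its probe set is of the x type too.

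Among the 6 helicase subunits, 5 were lower on both induced arrays than on either control and 1, MCM4, was higher in both. Non-overlap of this kind is common here: 22.4% of all genes were lower in both induced arrays and 21.4% higher in both. Over the 44 replication genes, 21 (47.7%) were lower and 8 (18.2%) higher by this measure. MCM2 read 10.97 and 10.90 on control arrays and 10.86 and 10.73 on induced arrays, and MCM7 read 10.66 and 10.63 against 10.56 and 10.49. The differences were -0.14 (SE 0.054, limma adjusted p = 0.486) for MCM2 and -0.12 (SE 0.042, limma adjusted p = 0.472) for MCM7, and the second MCM7 probe set gave -0.09. Without the second induced array MCM2 was at -0.08, and without the first at -0.21. MCM6, MCM3 and MCM5 differed by -0.05, -0.03 and -0.02, none at an unadjusted p under 0.05. The 5 probe sets of MCM4 disagreed, from -0.28 to 0.08, with 0.07 for the brightest. After centring arrays on their medians 4 of the 6 subunits were lower by sign and 2 higher, beside a median of 0.02 over all genes. With probe sets averaged per gene all 6 were lower.

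Genes of helicase activation were lower by sign in 5 of 6, with a median of -0.06. After centring arrays on their medians 3 were lower and 3 higher, beside a median of 0.02 over all genes. After cyclic loess all 6 were lower, and with probe sets averaged per gene 4 were lower and 2 higher. The median of the helicase activation genes was -0.02 without the first control array. GINS3, a subunit of the 4-part GINS ring, read 8.70 and 8.67 on control arrays and 8.58 and 8.52 on induced arrays, differing by -0.14 (SE 0.054, limma adjusted p = 0.490). The second GINS3 probe set, also bright, gave 0.03. CDC45 read 10.02 and 10.003 on control arrays and 9.95 and 9.88 on induced arrays, differing by -0.10 (SE 0.045, limma adjusted p = 0.515) without overlap. GINS4, with the largest SE of the 44 genes, read 9.05 and 8.87 on control arrays and 9.15 and 8.57 on induced arrays. Its 2 induced arrays lay on either side of both controls, and the difference was -0.10 (SE 0.18). Without the second induced array it was 0.19, and without the first -0.39. GINS1 and GINS2 differed by 0.01 and -0.01, and MCM10, which helps the helicase to start, by -0.02.

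**Figure D3:**
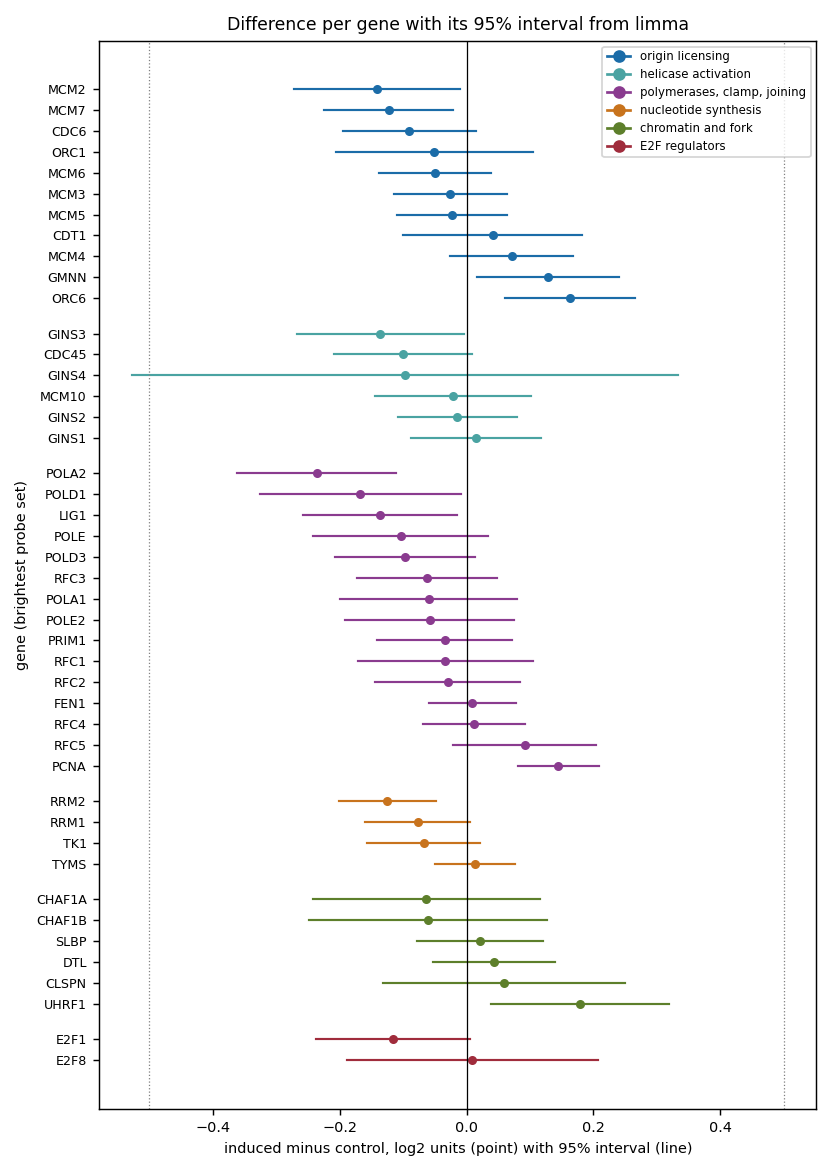
Difference between induced and control arrays in log2 units (x axis; point) with its 95% interval from limma (line) for each of the 44 genes (y axis), coloured by role; dotted lines mark 0.5 log2 units on either side of 0. The interval of every gene but GINS4, which reaches -0.53, lies between the dotted lines.

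The polymerase and clamp genes were 11 lower and 4 higher by sign, with a median of -0.06. At an unadjusted p under 0.05 stood 1 higher (6.67%, against 6.48% of all genes) and 3 lower (20%, against 4.73%). Within this group, all 7 polymerase and primase subunits were lower by sign, from -0.24 to -0.03 with a median of -0.10. Of these 7, 6 were lower on both induced arrays than on either control, against 22.4% of all genes and 47.7% of the 44. This subset was formed after its values were seen and has no test. All 7 were also lower after centring arrays on their medians and after cyclic loess. With probe sets averaged they were lower too, but only POLA2 and POLD3 have several probe sets, so the others could not move. Without the first control array the primase subunit PRIM1 was at 0.00 and the other 6 were lower.

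POLA2, the B subunit of polymerase alpha, read 10.15 and 10.25 on control arrays and 9.99 and 9.94 on induced arrays. It had the most negative difference of the 44 genes, -0.24 (0.849-fold, SE 0.052, limma adjusted p = 0.472), with a 95% interval from -0.36 to -0.11. Its 2 other probe sets gave -0.16 and -0.08. The catalytic subunit of the same enzyme, POLA1, differed by -0.06 and the small primase subunit PRIM1 by -0.03. POLD1, the catalytic subunit of polymerase delta, read 8.21 and 8.27 on control arrays and 8.13 and 8.01 on induced arrays. Its difference was -0.17 (SE 0.066, limma adjusted p = 0.490) without overlap, and that of the accessory subunit POLD3 was -0.10. For polymerase epsilon, the catalytic POLE differed by -0.10 and POLE2 by -0.06. LIG1, the ligase that joins Okazaki fragments, read 9.12 and 9.09 on control arrays and 8.94 and 8.995 on induced arrays, differing by -0.14 (SE 0.050, limma adjusted p = 0.480).

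PCNA, the clamp that tethers these polymerases, differed in the other direction. It read 12.76 and 12.75 on control arrays and 12.90 on both induced arrays. Replicates lay within 0.01 of each other while the groups were 0.14 apart (1.11-fold, SE 0.026, 95% interval from 0.08 to 0.21). This was the smallest p of the 44 genes, and it did not pass after adjustment over all probe sets (limma adjusted p = 0.444). The difference was 0.11 to 0.17 under array centring, cyclic loess and leaving out each array in turn. Averaging of probe sets cannot move it, as PCNA has 1. The clamp loader subunits RFC1 to RFC5, which place PCNA on DNA, differed by -0.03, -0.03, -0.06, 0.01 and 0.09, with none at an unadjusted p under 0.05. The 3 probe sets of RFC5 ran from -0.08 to 0.09. The flap nuclease FEN1 read 12.23 on both control arrays and 12.25 and 12.24 on induced arrays, differing by 0.01, but its second probe set gave -0.12 (SE 0.039).

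Nucleotide synthesis genes were lower by sign in 3 of 4, with a median of -0.07. Each of those 3 (75%, against 22.4% of all genes) was lower on both induced arrays than on either control. RRM2, the small subunit of ribonucleotide reductase that cells make in S phase, read 13.33 and 13.26 on control arrays and 13.17 on both induced arrays. The difference was -0.12 (0.917-fold, SE 0.032, limma adjusted p = 0.472), and the second RRM2 probe set gave -0.03. The large subunit RRM1 read 11.96 and 12.00 on control arrays and 11.88 and 11.92 on induced arrays, differing by -0.08 (SE 0.034, limma adjusted p = 0.514). Its second probe set gave -0.13. TK1, the cytosolic thymidine kinase, was at 11.37 and 11.35 against 11.32 and 11.26, a difference of -0.07 (SE 0.037), which was -0.04 without the second induced array, and its second probe set gave -0.06. TYMS, which makes dTMP, read 13.22 and 13.23 on control arrays and 13.22 and 13.25 on induced arrays, differing by 0.01. Its second bright probe set gave -0.10 (SE 0.030), so the sign for TYMS depends on the probe set.

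RRM2B, the alternative small subunit of ribonucleotide reductase that p53 can induce, is not among the 44 genes. It read 9.56 and 9.21 on control arrays and 9.69 and 9.85 on induced arrays. Unlike RRM1 and RRM2 it was higher by sign, by 0.38 (SE 0.12, limma adjusted p = 0.472) on its only probe set. The second control array was well below the first, and the difference was 0.21 without it and 0.56 without the first. Of 15 other nucleotide metabolism genes measured, an unadjusted p under 0.05 was reached by 2 higher and 0 lower, and 0 were called. Over all genes the shares were 6.48% higher, 4.73% lower and 0% called. The pyrimidine enzyme UMPS was at 0.10 on its brightest probe set and 0.00 on the next, and the mitochondrial thymidine kinase TK2 was at -0.20 (SE 0.087), and at -0.10 without the second induced array.

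Chromatin and fork factors leaned the other way, with 4 higher and 2 lower by sign and a median of 0.03. That median was -0.01 with probe sets averaged per gene and -0.0049 without the second control array. UHRF1 read 11.29 and 11.12 on control arrays and 11.37 and 11.39 on induced arrays. Its difference of 0.18 (1.13-fold, SE 0.058, limma adjusted p = 0.472) was the most positive of the 44, and without the first control array it was 0.26 and without the second 0.10. DTL, which directs CDT1 for destruction at PCNA on chromatin, read 10.49 and 10.44 on control arrays and 10.51 and 10.50 on induced arrays, differing by 0.04 (SE 0.039), and its second probe set gave -0.03. CHAF1A, the large subunit of the chromatin assembly factor that deposits histones behind the fork, read 9.02 and 9.12 on control arrays and 9.09 and 8.92 on induced arrays. Its groups overlapped, with a difference of -0.06 (SE 0.074), and its 3 other probe sets ran from -0.13 to 0.04. CHAF1B, the checkpoint adaptor CLSPN and the histone mRNA binding protein SLBP differed by -0.06, 0.06 and 0.02, all with overlapping arrays.

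Of the regulators, E2F1 was lower without overlap and E2F8 overlapped between groups. E2F1, an activator of replication genes, read 8.92 and 8.96 on control arrays and 8.82 and 8.83 on induced arrays, differing by -0.12 (SE 0.050, limma adjusted p = 0.508). Its second probe set gave -0.05 with overlapping arrays. E2F8, a repressor of the same genes, read 9.65 and 9.42 on control arrays and 9.51 and 9.58 on induced arrays, where both induced arrays lay between the controls. The other repressor of this kind, E2F7, is not among the 44 genes and was at 0.17 (SE 0.054, limma adjusted p = 0.472), while its second, dimmer probe set gave -0.22. Of 13 other genes of the E2F pathway 2 higher and 0 lower reached an unadjusted p under 0.05, E2F7 and the retinoblastoma gene RB1 at 0.22 (SE 0.080). Over all genes the shares were 6.48% higher and 4.73% lower. RB1 was at 0.11 without the second control array, and its second, dimmer probe set gave -0.08 with overlapping arrays. E2F7 was at 0.11 without the second induced array. With probe sets averaged per gene the count was 0 higher (against 5.1% of all genes) and 1 lower (against 5.25%). The S-phase cyclin CCNE1 was at -0.12 (SE 0.055), and at -0.07 without the second induced array. CCNE2 was at 0.18, and at 0.03 without the second control array.

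Probe sets of 1 gene often disagreed at this size of difference. Of 24 genes with several probe sets that reach the median level, 10 had the same sign in all of them, and all 10 were lower. They were MCM5, MCM7, POLA2, POLD3, RFC1, RFC3, RRM1, RRM2, TK1 and E2F1. For RFC1 the second of these probe sets was at -0.00016, and a dimmer one gave 0.14. The other 14, among them CDC6, GINS3, FEN1 and TYMS, had probe sets of both signs. PCNA, ORC6, GMNN and UHRF1, the 4 genes higher at an unadjusted p under 0.05, have 1 probe set each, so their differences have no second reading. Over all 85 probe sets, 4 higher and 9 lower reached an unadjusted p under 0.05, against 4.75% and 5.27% of all probe sets.

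**Figure D4:**
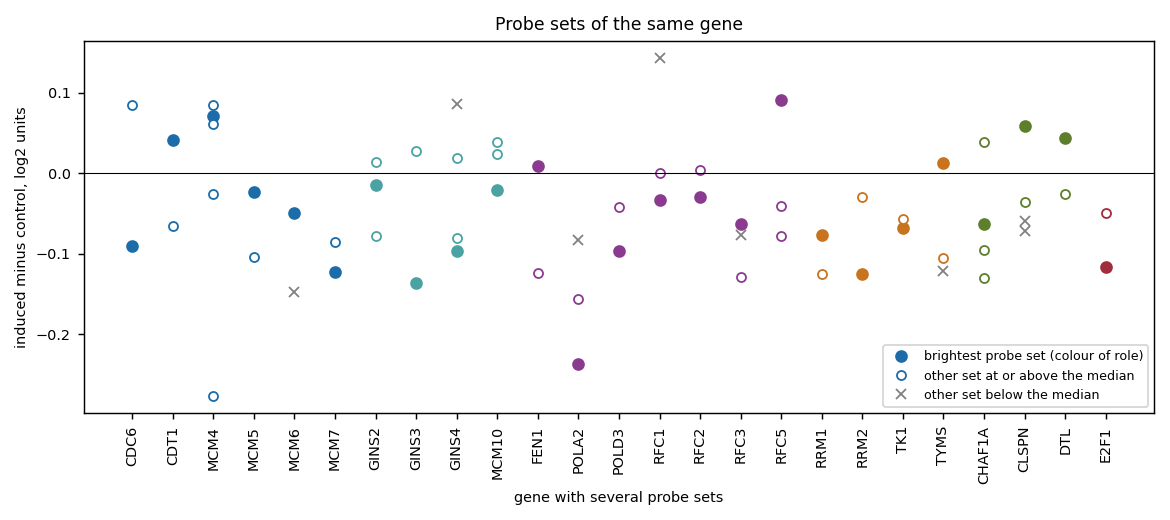
Difference between induced and control arrays (y axis, log2 units) for every probe set of the 25 genes with several (x axis). Filled points are the brightest probe set, open points other sets that reach the median level over probe sets, and crosses dimmer sets; the sets of POLA2 and RRM1 all lie below 0, and those of CDC6 and MCM4 on both sides.

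Other replication genes also differed little. Of 32 genes that are not among the 44, such as the remaining origin recognition subunits, the DBF4 and CDC7 kinase and the RPA proteins, 19 were higher and 13 lower by sign, with a median of 0.01. At an unadjusted p under 0.05 stood 1 higher, the large primase subunit PRIM2 at 0.18 (SE 0.068), and 1 lower, the FACT subunit SUPT16H at -0.09 (SE 0.037). Over all genes the shares were 6.48% higher and 4.73% lower. The second SUPT16H probe set, also bright, gave -0.70 (SE 0.54) with overlapping arrays. The helicase RECQL4 was at -0.11 (SE 0.053), and its second bright probe set gave -0.02 with overlapping arrays. Thus PRIM2 and PRIM1, which form 1 enzyme, had differences of opposite sign. POLD2, POLD4 and POLE4, polymerase subunits outside the 44 genes, were at 0.00, 0.01 and 0.00, and POLE3 was at 0.10, so the lower signs of the 7 polymerase and primase genes did not extend to these.

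Mitosis genes, which act after replication in the same cell cycle, had a median of -0.05 over 22 genes, with 15 lower and 7 higher by sign. At an unadjusted p under 0.05 stood 6 of the 22 lower (4.73% of all genes were) and 1 higher (6.48% of all genes). The kinetochore protein CENPF was at -0.19 (SE 0.037), the spindle factor TPX2 at -0.15 (SE 0.040) and PRC1 at -0.13 (SE 0.035), but the second bright probe set of CENPF gave -0.0065 with overlapping arrays. The proliferation marker MKI67 was at 0.02 and the cyclin CCNA2 at 0.12. The median of the 44 replication genes was -0.04, and the difference between the lists was not tested.

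**Figure D5:**
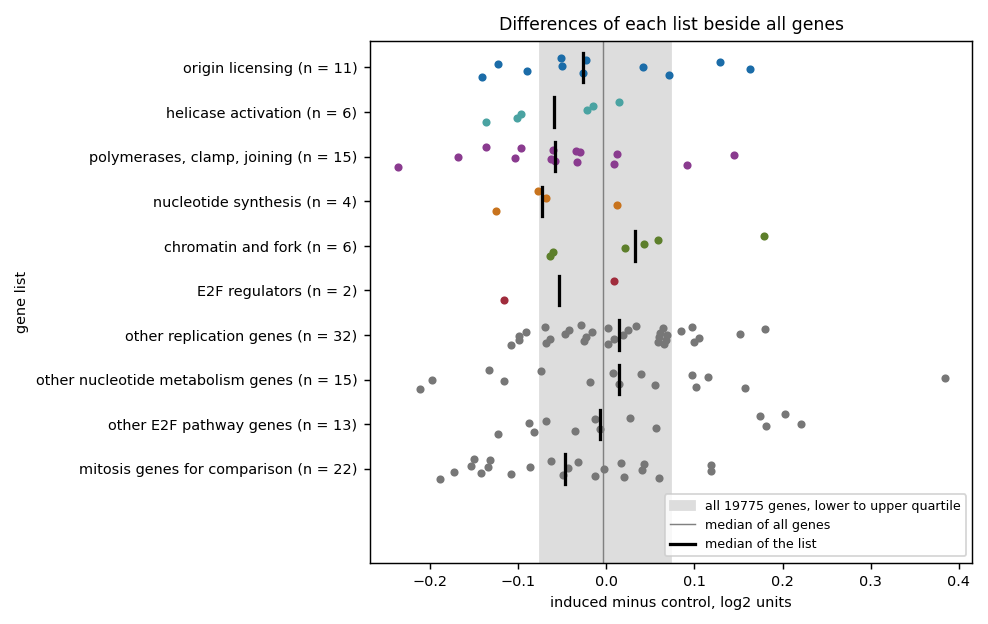
Differences between induced and control arrays (x axis, log2 units) for the genes of each role and of 4 comparison lists (y axis; 1 point per gene), with the median of each list as a black bar and the range from the lower to the upper quartile of single genes, over all genes, in grey. The medians of the 6 role groups run from -0.07 for nucleotide synthesis to 0.03 for chromatin and fork factors.

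Set side by side, origin licensing genes had a median of -0.03, polymerase and clamp genes -0.06 and nucleotide synthesis genes -0.07. With each array centred on its own median these were -0.0012, -0.03 and -0.05. Centring shifts the difference of every gene alike, and the median over all genes went from -0.0030 to 0.0216. On the single arrays, the median deviation of licensing genes from their own 4-array means was 0.02 and 0.01 on control arrays and 0.0029 and -0.03 on induced arrays. For polymerase and clamp genes it was 0.03 and 0.02 against -0.0025 and -0.04, and for nucleotide synthesis genes 0.03 and 0.03 against -0.03 and -0.04. In each of these 3 groups both induced arrays lay below both controls as deposited. After centring this held for nucleotide synthesis genes alone of the 3, at 0.03 and 0.0015 against -0.02 and -0.03. Licensing genes were then at 0.02 and -0.02 against 0.02 and -0.02, and polymerase and clamp genes at 0.03 and -0.0028 against 0.01 and -0.03, both overlapping. With 2 arrays per group there are 3 ways to split the arrays, so an exact 2-sided permutation test cannot give a p below 0.333, and the differences between the roles were not tested.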

How the data were processed

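The authors deposited a log intensity for each probe set. The submitters' processing notes name RMA and the package affy, with no version and no log base given in the sources used here. The deposited values were taken as log2, since the highest, 14.5, exceeds the natural log of the largest 16-bit reading, 11.1. RMA equalises array distributions, so a change shared by most genes would not be seen. Of 54675 rows 62 control probe sets were left out. Groups and replicate numbers came from the sample titles, and the members and lists were chosen with earlier results of these data known. Differences were fitted with limma 3.58.1 in R 4.3.3 (lmFit, eBayes with intensity trend, 2-sided, 6.27 degrees of freedom), and p-values were adjusted by Benjamini-Hochberg over 54613 probe sets. A gene was represented by its probe set of highest mean. Named with all arrays were the 3 members of smallest p per role (2 for E2F) plus PCNA, RRM2, TYMS, MCM2, CDC6, CDT1 and E2F1, and from each other list the 3 genes of smallest p. POLD1 and FEN1 were given with all arrays, and other genes named, after their values were seen. Alternatives were a replicate block, eBayes without trend or robust, a filter at the median, array centring, cyclic loess, averaging of probe sets, a threshold of 0.1 and leaving out each array in turn, where the lone array is taken to vary as the other group does. The number of arrays limits precision. The RefSeq promoters were checked for orientation on 2986 overlapping windows, which were all reverse complements.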

Additional observations from a re-analysis of the deposited data

How the results depend on the processing

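The count of called replication genes stayed at 0 under all alternatives, adjusted p under 0.1 included. Of 21 named genes 16 kept their sign in the 7 alternatives that can move a difference, since the other 4 leave it as it is. Of the 7, averaging of probe sets can move only genes with several probe sets. The share of all genes at an unadjusted p under 0.05 also changed with the setting, so bare counts cannot be compared between settings. With the replicate block 4 genes were lower (9.09%, against 3.47% of all genes) and 4 higher (9.09%, against 4.68%). Without the eBayes trend 1 was lower (2.27%, against 3.38%) and 0 higher (against 4.37%). After centring arrays on their medians 4 were higher (9.09%, against 8.42%), and lower genes numbered 2 (4.55%, against 2.79%). Without each array in turn they ranged from 2 to 5, and higher genes from 1 to 3. Same-numbered arrays had deviations that correlated at 0.0564 over 54613 probe sets. With 2 arrays per group this single value cannot show whether replicates were paired. The block changed no call, since 0 genes were called with and without it. After centring, the medians were -0.0174 for all 44 genes, -0.0012 for licensing and -0.0336 for polymerases and clamp. For nucleotide synthesis the median was -0.0478 after centring and -0.0933 after cyclic loess. The median over all genes was -0.0030 as deposited, 0.0216 after centring and 0.0055 after cyclic loess. With probe sets averaged the medians were -0.0221 for helicase activation and -0.00913 for chromatin and fork factors. Leaving out each array gave medians from -0.0507 to -0.0224 for all 44 genes, -0.0416 to -0.0100 for licensing, -0.0743 to -0.0168 for helicase activation, -0.0699 to -0.0324 for polymerases and clamp, -0.0768 to -0.0656 for nucleotide synthesis and -0.0049 to 0.055 for chromatin and fork factors. Signs turned for TYMS (-0.0196 after cyclic loess, -0.0712 with probe sets averaged) and CDT1 (-0.012 with probe sets averaged). Leaving out an array gave -0.0108 to 0.0936 for CDT1, -0.11 to 0.13 for E2F8, -0.15 to 0.0223 for CHAF1A and -0.39 to 0.19 for GINS4. Beyond the arrays and probe sets named, the cause was not tested.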
